A study of Mus musculus with 12 samples.

Results

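Voltage-gated calcium channels are opened by depolarization of the cell membrane and let calcium into the cell, and 10 genes for their neuronal and auxiliary subunits were examined in 3 regions of the mouse cochlea. The genes were Cacna2d1, Cacna2d2 and Cacna2d3 for alpha2delta subunits, Cacng2, Cacng4, Cacng5 and Cacng7 for gamma subunits, Cacna1a and Cacna1b for pore-forming subunits, and Cacnb4 for a beta subunit. Every non-control probe on the arrays that carried 1 of these 10 symbols as its gene name was used, and all 10 symbols were found, with 216 of 165865 probes and 10 of 19505 genes. RNA came from C57BL/6 male mice aged 6 weeks, for which the labels name no mutation or treatment, and it was hybridized to 12 single-color exon arrays at 25 ng per array. The cochlea was cut into an apical, a middle and a basal turn, and each turn was measured on 4 arrays. The tissue held the lateral wall with the stria vascularis, the organ of Corti and, by the methods, the spiral ganglion neurons, so each array measured a mixture of cell types. The study used 4 mice, and the labels do not say which arrays share a mouse. The arrays of a turn lay together on 1 slide, so turn and slide cannot be told apart in any comparison given here.

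The pore of a voltage-gated calcium channel is formed by an alpha1 subunit, which also sets the channel's class. Alpha2delta subunits sit on the outer face of the membrane and raise the number of channels there, beta subunits bind the pore from inside the cell, and several proteins of the gamma family act mainly as partners of AMPA-type glutamate receptors. In the cochlea, the release of glutamate from inner hair cells depends on a channel with the Cacna1d pore, whereas spiral ganglion neurons carry a wider set of classes that includes P/Q-type and N-type channels.

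The signal of a gene is given in scaled fluorescence units, as mean ± SD of 4 arrays, and a log2 difference compares the mean log2 signals of 2 turns and is positive where the turn named first was higher. A gene is called where the adjusted p of limma's contrast, by the Benjamini-Hochberg method over 19505 genes, was under 0.05. The 75th percentile of an array before scaling ran from 534.0 to 721.6, well-above-background spots made up 77.4% to 81.4% of an array, no spot was saturated, and the median SD of a gene within a turn was 0.106 to 0.126 log2 units. All gene lists used here were compiled with results of these arrays known, and Cacna2d3, Cacng2 and Cacng4 had been singled out in the study from the same arrays, so the counts below are not independent evidence for a direction.

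Of the 10 genes, 7 were higher at the apex than at the base (Cacna2d1, Cacna2d3, Cacng2, Cacng5, Cacng7, Cacna1a and Cacnb4), 2 were higher at the base (Cacna2d2 and Cacng4), and Cacna1b was not called. Over all genes tested, 17.6% were called higher at the apex and 21.6% higher at the base. The median log2 difference of the 10 genes between apex and base was 0.68, beside -0.04 for all genes. The 4 apical arrays were all above the 4 basal arrays in 5 of the 10 genes and all below them in 2, where 16.9% and 21.4% of all genes did so. The F test over the 3 turns passed for 9 of the 10 genes, all but Cacna1b, and for 38.6% of all genes. When the F test was joined to a difference of 2-fold or more, 2 genes were left higher at the apex (Cacna2d3 and Cacng2) and 1 higher at the base (Cacng4), against 3.27% and 1.12% of all genes. With the arrays scaled to spike-in probes, a setting chosen after the data had been seen that moved the median of all genes between apex and base by -0.48 log2 units, 2 genes (Cacna2d3 and Cacng5) were still called higher at the apex, and 3 were called higher at the base (Cacna2d2 at -0.74, Cacng4 at -2.25 and Cacna1b at -0.39). Relative to the median of all genes, the 10 genes then ran from -1.73 to 1.31 log2 units, where the scaling to the 75th percentile gave -1.72 to 1.32. Both scalings multiply each array by 1 factor and so shift all genes alike. These relative values therefore had to match apart from rounding, and their match is no check on the calls.

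**Figure D1:**
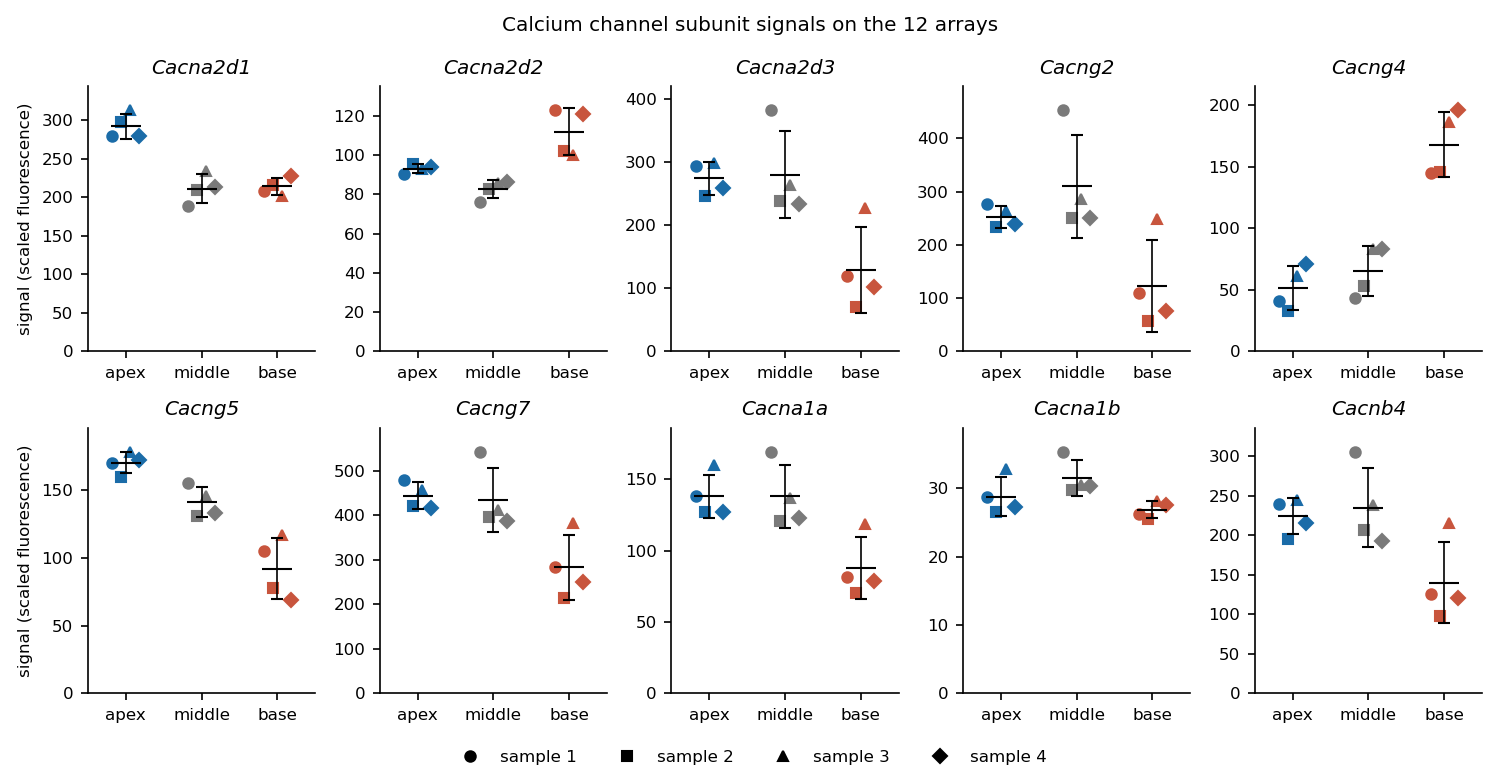
Signal of the 10 calcium channel subunit genes (vertical axis, scaled fluorescence from 0) on each of the 12 arrays, grouped by turn; the symbol shape gives the sample number and the bars give mean and SD of 4 arrays. Basal sample 3 lies above the other basal samples in Cacna2d3, Cacng2, Cacng5, Cacng7, Cacna1a and Cacnb4, and Cacng4 is highest at the base.

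Between middle and base, 6 genes were higher at the middle turn (Cacna2d3, Cacng2, Cacng5, Cacng7, Cacna1a and Cacnb4) and 2 were higher at the base (Cacna2d2 and Cacng4), where 11.7% and 9.21% of all genes were called. Between apex and middle, 1 gene, Cacna2d1, was higher at the apex, where 4.42% of all genes were. No member was called higher at the middle turn than at the apex by limma, by the unmoderated test or at an unadjusted p under 0.05 (0 of 10 each), where 7.59% of all genes were called. The mean of the middle turn lay between those of the ends in 4 of the 10 genes.

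**Figure D2:**
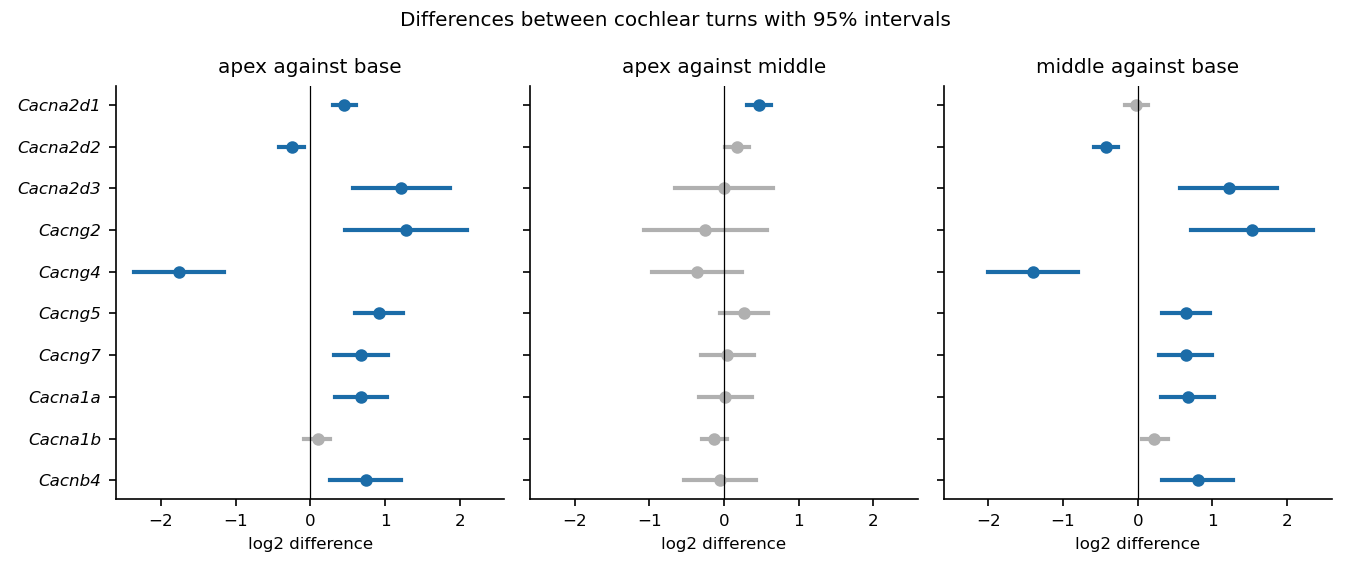
Log2 difference (horizontal axis) of each gene for apex against base, apex against middle and middle against base, with 95% intervals from limma; blue marks genes called at an adjusted p under 0.05 and gray the others. The 6 genes called higher at the middle turn than at the base have apex-against-middle values between -0.25 and 0.27.

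Cacna2d3 encodes an alpha2delta subunit of neurons, known for its part in synapse function and in the auditory pathway. Its signal was 294, 246, 299 and 258 on the apical arrays, 382, 238, 263 and 234 on the middle arrays, and 119, 69.6, 227 and 102 on the basal arrays. The highest basal array, sample 3, was still below the lowest apical and the lowest middle array. The mean fell from 274 ± 26.0 at the apex and 280 ± 69.5 at the middle turn to 129 ± 68.2 at the base, a difference between apex and base of 1.22 log2 units (SE 0.30, 2.33-fold, adjusted p = 0.0068 by limma with Benjamini-Hochberg adjustment). Middle and base differed by the same amount, 1.22 log2 units (limma, adjusted p = 0.015), and apex and middle by 0.00 with a 95% interval of -0.65 to 0.65. Apex and base differed by 1.53 log2 units without basal replicate 3 and by 0.96 without basal replicate 2, and were called in both.

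The 32 probes for Cacna2d3 lie on chr14:29718399-30534891 (mm9, minus strand) and span the transcript NM_009785. All 32 had a higher mean at the apex than at the base, with differences from 0.45 to 1.79 log2 units, and 29 of them were called on the probe level, where 18.0% of all probes were called higher at the apex and 16.4% higher at the base. The smallest and the largest difference belonged to probes from one transcript, shown here as printed on the array, 5′ to 3′, to place the range along the gene. The first starts at base 2093 of the transcript and gave a mean signal of 126 at the apex and 92.2 at the base, and the second starts at base 2548 and gave 80.6 and 23.3, with only 1 of 4 basal arrays well above background.
Cacna2d3 base 2093, chr14:29871533-29871592: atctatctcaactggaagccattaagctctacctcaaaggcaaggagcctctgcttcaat
Cacna2d3 base 2548, chr14:29795498-29795557: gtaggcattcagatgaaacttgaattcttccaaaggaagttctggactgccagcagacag
A stretch of 4 probes from base 1949 to base 2283 had differences between 0.45 and 0.78 log2 units, lower than those of the probes on either side of it, which were 1.31 and 1.16.

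Cacna2d1, an alpha2delta subunit of muscle and nerve and a binding site of gabapentin, was the only gene of the 10 that was called higher at the apex than in both other turns. Its signal was 279, 297, 313 and 279 at the apex, 188, 210, 234 and 213 at the middle turn and 208, 216, 202 and 228 at the base. No apical array overlapped with either other turn, and middle and base overlapped. The apex exceeded the base by 0.45 log2 units (SE 0.07, 1.37-fold, adjusted p = 0.00055) and the middle turn by 0.47 (adjusted p = 0.0038), both by limma with Benjamini-Hochberg adjustment. Middle and base differed by -0.02 with a 95% interval of -0.17 to 0.14. With the arrays scaled to the spike-in probes, the difference between apex and base was -0.03 log2 units (limma, adjusted p = 0.81). Relative to the median of all genes it was 0.49 in both scalings, a value that scaling by 1 factor per array cannot change. The 31 probes (chr5:15440829-15876609, plus strand) all had a higher mean at the apex, and 25 were called.

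Cacna2d2, an alpha2delta subunit whose loss causes the ducky phenotype of ataxia and epilepsy in mice, was higher at the base. The arrays gave 90.5, 95.4, 92.8 and 94.1 at the apex, 76.4, 82.8, 86.0 and 86.2 at the middle turn, and 123, 102, 100 and 121 at the base. The basal arrays were all above the others. The difference between apex and base was -0.25 log2 units (SE 0.07, adjusted p = 0.019) and that between middle and base -0.42 (adjusted p = 0.0034), by limma with Benjamini-Hochberg adjustment. The comparison with the apex was lost without basal replicate 1 (-0.21, adjusted p = 0.054 by limma) and without basal replicate 4 (-0.21, adjusted p = 0.056), which took the count of genes higher at the base from 2 to 1. Of 31 probes (chr9:107302349-107431304, plus strand), 4 had a higher mean at the apex, and 5 were called higher at the base, a share close to the 16.4% of all probes. The probe at base 138, with 73.3% G and C bases, gave signals of 104000 at the apex and 126000 at the base, a difference of -0.28 log2 units. When probe signals were averaged on the linear scale, where this probe carries most of the sum, middle and base differed by -0.17 and were not called (limma, adjusted p = 0.081), nor were they with a normexp background correction (-0.15, adjusted p = 0.075).

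Cacng2 encodes stargazin, which brings AMPA receptors to synapses and is mutated in the stargazer mouse. Its signal was 277, 233, 264 and 240 at the apex, 453, 251, 286 and 251 at the middle turn, and 110, 57.8, 248 and 75.3 at the base. Basal sample 3 reached into the range of the apex, while the 3 other basal arrays were below all apical and middle arrays. The mean was 253 ± 20.9 at the apex, 310 ± 96.8 at the middle turn and 123 ± 86.2 at the base. Apex and base differed by 1.28 log2 units (SE 0.37, 2.42-fold, adjusted p = 0.018) and middle and base by 1.53 (adjusted p = 0.015), by limma with Benjamini-Hochberg adjustment. The value for apex and base was 1.69 without basal replicate 3, and it was no longer called without basal replicate 2 (0.99, adjusted p = 0.051 by limma) or basal replicate 4 (1.12, adjusted p = 0.055).

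Cacng4 encodes another AMPA receptor partner of the same family and had the opposite order of turns. The arrays gave 41.0, 32.6, 61.0 and 71.4 at the apex, 43.1, 53.5, 82.8 and 83.0 at the middle turn and 145, 146, 186 and 196 at the base. Every basal array was above every apical and middle array. The mean rose from 51.5 ± 17.8 at the apex and 65.6 ± 20.4 at the middle turn to 168 ± 26.5 at the base. Between apex and base the difference was -1.76 log2 units (SE 0.27, 3.39-fold higher at the base, adjusted p = 0.00049) and between middle and base -1.40 (2.64-fold, adjusted p = 0.0057), by limma with Benjamini-Hochberg adjustment. Apex and middle differed by -0.36 with a 95% interval of -0.96 to 0.24. With a normexp background correction and the other settings tried, the apex-to-base value of Cacng4 lay between -2.25 and -1.0 and stayed past the threshold.

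Of the 4 probes each for Cacng2 (chr15:77825290-77949202, mm9, minus strand) and Cacng4 (chr11:107596096-107655689, minus strand), 3 and 4 are shown because these related genes gave opposite differences, and because 2 probes of each lie in matching stretches. Capitals mark the bases that a Cacng2 probe shares with the matching Cacng4 probe in the ungapped register with the most identities.
Cacng2 base 508, chr15:77949143-77949202: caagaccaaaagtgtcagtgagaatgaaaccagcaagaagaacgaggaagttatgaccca
Cacng2 base 624, chr15:77843743-77843802: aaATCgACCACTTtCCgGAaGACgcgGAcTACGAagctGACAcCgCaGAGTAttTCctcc
Cacng4 base 240, chr11:107603239-107603298: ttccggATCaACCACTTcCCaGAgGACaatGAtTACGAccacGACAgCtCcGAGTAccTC
Cacng2 base 765, chr15:77827281-77827340: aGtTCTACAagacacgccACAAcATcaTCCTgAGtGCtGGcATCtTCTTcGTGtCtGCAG
Cacng4 base 385, chr11:107598041-107598100: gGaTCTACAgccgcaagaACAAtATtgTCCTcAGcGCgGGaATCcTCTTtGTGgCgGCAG
Cacng4 base 89, chr11:107655630-107655689: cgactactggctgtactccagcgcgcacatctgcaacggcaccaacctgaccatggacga
Cacng4 base 922, chr11:107596096-107596155: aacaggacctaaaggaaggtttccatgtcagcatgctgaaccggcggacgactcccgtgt
The Cacng2 probe at base 624 and the Cacng4 probe at base 240 shared 37 of 56 overlapping bases, and the pair at bases 765 and 385 shared 38 of 60. The first pair differed between apex and base by 1.18 log2 units (SE 0.41) at the Cacng2 probe and by -1.71 (SE 0.29) at the Cacng4 probe. In the second pair the differences were 1.32 (SE 0.38) and -1.60 (SE 0.27). All 4 probes of Cacng2 were called higher at the apex, from 1.18 to 1.33 log2 units, and all 4 probes of Cacng4 were called higher at the base, from -1.97 to -1.60. The Cacng4 probes at bases 89 and 922 were well above background on all 4 basal arrays but on only 2 of 4 apical arrays each, so their differences rest in part on signals near background.

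Cacng5 encodes a gamma subunit that modulates AMPA receptors with a narrower preference than stargazin. Its signal was 170, 160, 178 and 172 at the apex, 155, 131, 146 and 133 at the middle turn and 105, 77.5, 117 and 68.8 at the base. Neither the apical and middle arrays nor the middle and basal arrays overlapped. The apex exceeded the base by 0.92 log2 units (SE 0.14, 1.89-fold, adjusted p = 0.00053) and the middle turn exceeded the base by 0.65 (adjusted p = 0.010), by limma with Benjamini-Hochberg adjustment, while apex and middle differed by 0.27 and were not called (adjusted p = 0.22). In the RefSeq gene table, 0 genes lie between Cacng4 and Cacng5 on chromosome 11, and the probes of Cacng5 (chr11:107736263-107745745, mm9, minus strand) start 80573 bases past those of Cacng4, which was higher at the base.

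Cacng7, the closest relative of Cacng5, gave 479, 421, 458 and 417 at the apex, 542, 396, 413 and 388 at the middle turn, and 285, 215, 383 and 251 at the base. Basal sample 3 was just under the lowest middle array, and no basal array reached the apex or the middle turn. Apex and base differed by 0.68 log2 units (SE 0.16, 1.60-fold, adjusted p = 0.0063) and middle and base by 0.64 (adjusted p = 0.018), by limma with Benjamini-Hochberg adjustment. The difference between middle and base was lost without basal replicate 2 (0.51, adjusted p = 0.051 by limma), without basal replicate 4 (0.59, adjusted p = 0.053) and without middle replicate 1 (0.53, adjusted p = 0.053), and also with arrays of these turns only (0.64, adjusted p = 0.054).

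The probes of Cacng5 and Cacng7 (chr7:3336787-3366501, plus strand) did not all move by the same amount. Of 5 Cacng5 probes, 4 were called higher at the apex, with differences from 0.80 to 1.63 log2 units, and 1, at base 706, was called higher at the base. That probe gave 300 at the apex, 332 at the middle turn and 349 at the base, and its difference was -0.22 log2 units (SE 0.07, adjusted p = 0.026 by limma over all probes). The Cacng7 probe in the matching stretch, at base 510, gave 859 at the apex and 656 at the base and differed by 0.39 (SE 0.11), while the 3 Cacng7 probes nearer the transcript start differed by 0.93, 0.92 and 0.79. The fifth, at base 732, differed by 0.35 and was not called (adjusted p = 0.10 by limma over all probes). The probes of the matching stretch are shown with their shared bases in capitals, beside a Cacng5 probe that was called higher at the apex and is shown in lower case.
Cacng5 base 706, chr11:107739209-107739268: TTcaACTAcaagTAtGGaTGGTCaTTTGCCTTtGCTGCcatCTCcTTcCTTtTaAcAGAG
Cacng7 base 510, chr7:3365622-3365681: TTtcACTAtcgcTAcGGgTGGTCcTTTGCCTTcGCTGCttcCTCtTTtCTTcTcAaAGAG
Cacng5 base 532, chr11:107742939-107742998: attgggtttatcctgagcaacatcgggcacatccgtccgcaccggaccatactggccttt
The pair at bases 706 and 510 shared 42 of 60 bases, or 70%. The Cacng5 probe at base 532 gave 49.8 at the apex and 16.1 at the base, where it was well above background on 1 of 4 arrays. The part of hybridization between related sequences in these differences was not tested.

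Cacna1a encodes the pore of P/Q-type channels, which drive transmitter release at many central synapses. Its signal was 138, 127, 160 and 127 at the apex, 169, 121, 137 and 123 at the middle turn, and 81.8, 70.3, 119 and 79.0 at the base. All basal arrays lay below all apical and middle arrays, with basal sample 3 closest. Apex and base differed by 0.68 log2 units (SE 0.16, 1.60-fold, adjusted p = 0.0059) and middle and base by 0.67 (adjusted p = 0.014), by limma with Benjamini-Hochberg adjustment.

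The 46 Cacna1a probes (chr8:86939484-87164005, mm9, plus strand) ranged from -0.70 to 2.34 log2 units between apex and base. Of these, 26 were called higher at the apex and 1, at base 609, was called higher at the base. The probe at base 609 gave 3090 at the apex, 4020 at the middle turn and 5040 at the base (limma over all probes, adjusted p = 0.0038). The probes at bases 5688 and 4940 were nearly level, with 16100 at the apex and 15700 at the base for the first and 1380 and 1410 for the second. At base 1425 the signal was 64.5 at the apex and 12.7 at the base, where 1 of 4 arrays was well above background. The probes with the lowest and the highest difference were as follows.
Cacna1a base 609, chr8:86985418-86985477: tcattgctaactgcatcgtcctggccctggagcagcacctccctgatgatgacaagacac
Cacna1a base 1425, chr8:87060016-87060075: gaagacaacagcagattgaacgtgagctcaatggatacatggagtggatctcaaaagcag
When probe signals were averaged on the linear scale, in which the probes at bases 609, 4940 and 5688 carry most of the sum, Cacna1a differed by 0.00 between apex and base (limma, adjusted p = 0.98) and by 0.03 between middle and base (adjusted p = 0.80). With the median of the probes, middle and base differed by 0.61 (limma, adjusted p = 0.053). At 4 probes that were well above background on all apical arrays and on no basal array, only an approximate bound can be given. By it, they were about 1.34-fold to 1.85-fold or more higher at the apex. Their adjusted p values of 0.0045 to 0.05 (limma over all probes) belong to the measured signals, and the bounds themselves were not tested. A bound compares the mean apical signal with the lowest signal that was well above background on each basal array, or with the probe's own where that was higher. The cutoff was not the same for every probe. At base 827, basal signals were 36.9, 28.8, 99.9 and 35.0, and 2 of 4 arrays were well above background. An undetected signal can therefore lie above that lowest signal, so the bounds are not strict.

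**Figure D3:**
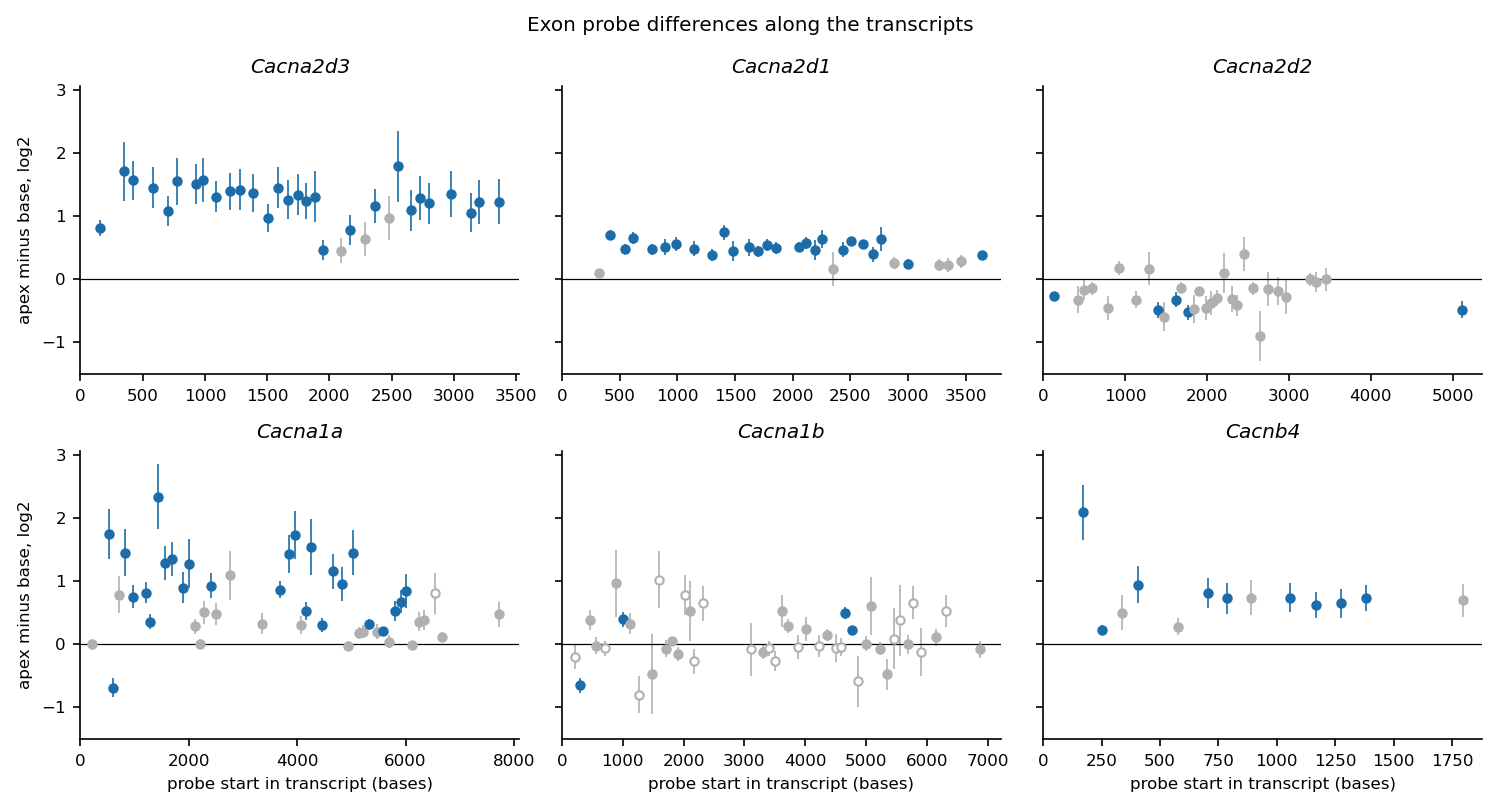
Difference between apex and base (vertical axis, log2 units) of each exon probe against its start in the transcript (horizontal axis, bases), for 6 of the genes; bars give the SE, blue marks probes called at an adjusted p under 0.05, and open points mark probes never well above background. The Cacna2d3 and Cacna2d1 probes all lie above 0, whereas the Cacna1a probes run from -0.70 to 2.34. Starts are counted in each probe's own transcript. The Cacna2d1 probes and the Cacna2d2 probes are each placed on 3 transcripts, and the leftmost Cacnb4 point lies in another transcript than the rest.

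Cacna1b encodes the pore of N-type channels, the target of omega-conotoxin in neurons, and was the 1 gene of the 10 that was not called between apex and base. Its signal was 28.7, 26.5, 32.8 and 27.2 at the apex, 35.3, 29.7, 30.5 and 30.4 at the middle turn, and 26.3, 25.5, 28.2 and 27.6 at the base. Apical and basal arrays overlapped, and the middle arrays were all above the basal ones. Apex and base differed by 0.10 log2 units with a 95% interval of -0.08 to 0.27 (limma with Benjamini-Hochberg adjustment, adjusted p = 0.39), and middle and base by 0.22 (adjusted p = 0.064). Of its 45 probes (chr2:24462137-24618344, minus strand), 20 were not well above background on any array, 3 were called higher at the apex and 1 higher at the base. With spike-in scaling, apex and base differed by -0.39 log2 units (limma, adjusted p = 0.0068). This was 0.13 above the median of all genes, a distance that scaling by 1 factor per array cannot change beyond rounding.

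Cacnb4 encodes a beta subunit that is mutated in the ataxic lethargic mouse. Its signal was 239, 195, 245 and 216 at the apex, 305, 206, 238 and 193 at the middle turn and 126, 97.6, 215 and 120 at the base. Basal sample 3 overlapped with the apex and the middle turn, and the other 3 basal arrays lay below both. Apex and base differed by 0.74 log2 units (SE 0.22, 1.67-fold, adjusted p = 0.019) and middle and base by 0.80 (adjusted p = 0.025), by limma with Benjamini-Hochberg adjustment. The first was lost without basal replicate 2 (0.59, adjusted p = 0.056 by limma) and without basal replicate 4 (0.69, adjusted p = 0.052). The second was lost without basal replicate 1 (0.77, adjusted p = 0.057 by limma), basal replicate 2 (0.65, adjusted p = 0.072), basal replicate 4 (0.75, adjusted p = 0.066) or middle replicate 1 (0.67, adjusted p = 0.074), and with arrays of these turns only (0.80, adjusted p = 0.064).

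All 13 Cacnb4 probes (chr2:52289964-52531849, minus strand) had a higher mean at the apex, and 9 were called. Of the 13, 12 are placed on the transcript NM_001037099 and 1 on NM_146123. The probe at base 252 of the first transcript gave 119 at the apex and 103 at the base, a difference of 0.22 log2 units (SE 0.07). The probe on the second transcript gave 36.9 at the apex and 8.69 at the base, a difference of 2.09 log2 units (limma over all probes, adjusted p = 0.0045). It was well above background on all 4 apical, 2 of 4 middle and no basal array, so only an approximate bound of about 1.36-fold or more higher at the apex can be given. The adjusted p belongs to the measured signals, and the bound itself was not tested. Whether the transcripts of Cacnb4 differed between turns was not tested.

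Across the 10 genes, 104 of 216 probes were called higher at the apex and 12 higher at the base, where 18.0% and 16.4% of all probes were. Without basal replicate 2 the first count was 67. Probes of 1 gene were measured on the same arrays and are not independent. Of the 104, Cacna2d3 gave 29, Cacna1a 26 and Cacna2d1 25.

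Of 16 other voltage-gated calcium channel subunit genes, 4 were called higher at the apex than at the base, where 17.6% of all genes were. The other 12 were not called, and 21.6% of all genes were called higher at the base. The 4 were Cacna1d, the pore of the channel at inner hair cell synapses (0.51 log2 units, adjusted p = 0.00017), Cacna1g (0.61, adjusted p = 0.00025) and Cacna1h (0.33, adjusted p = 0.0045) of T-type channels, and Cacna1c, the L-type pore of heart and smooth muscle (0.37, adjusted p = 0.0014), all by limma with Benjamini-Hochberg adjustment. The signal of Cacna1d was 216 ± 20.7 at the apex, 189 ± 8.76 at the middle turn and 151 ± 3.55 at the base. The median difference of the 16 genes was 0.15 log2 units, beside -0.04 for all genes.

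**Figure D4:**
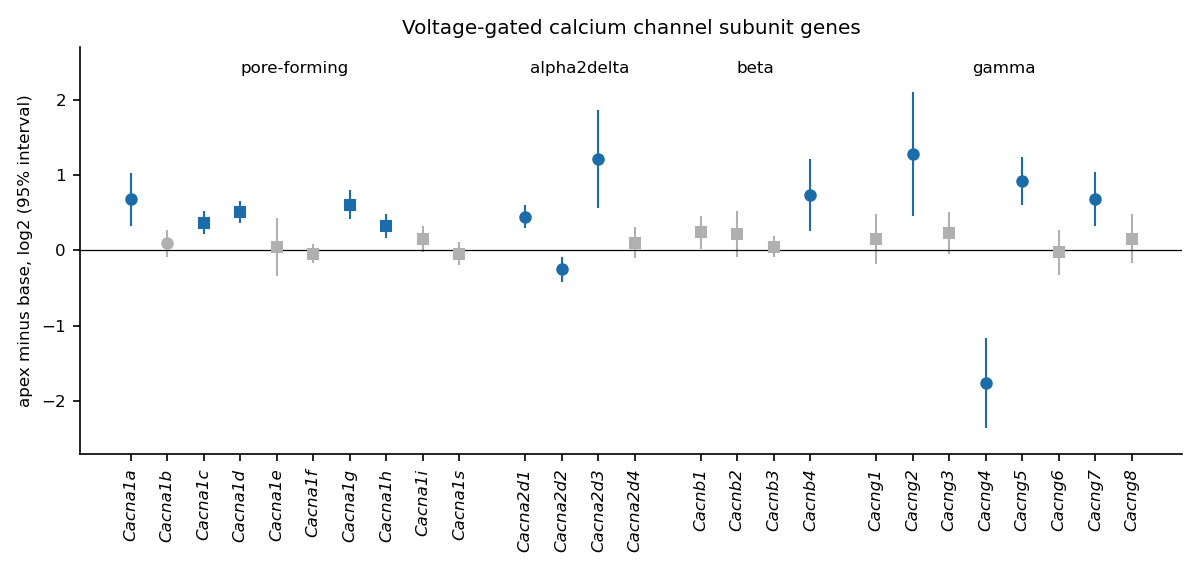
Difference between apex and base (vertical axis, log2 units, with 95% intervals) of 26 calcium channel subunit genes, grouped by subunit class; circles are the 10 genes described in the text, squares the 16 others, and blue marks an adjusted p under 0.05. The values run from -1.76 for Cacng4 to 1.28 for Cacng2, and the 16 others lie between -0.04 and 0.61.

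Proteins that bind these channels, from calcium-binding proteins to release-site scaffolds, included 7 of 13 genes called higher at the apex and 1 called higher at the base. Over all genes, 17.6% were called higher at the apex and 21.6% higher at the base. The largest differences were those of Rims2 (1.32 log2 units, adjusted p = 0.0032) and Rims1 (1.30, adjusted p = 0.0027), which tether channels at release sites, while Gem, a small GTPase that binds beta subunits, differed by -0.46 (adjusted p = 0.017), all by limma with Benjamini-Hochberg adjustment. The median of the list was 0.57 log2 units. Of 8 measured AMPA receptor subunits and partners, 3 were called higher at the apex, with Gria2 (1.66, adjusted p = 0.0073) and Gria4 (1.53, adjusted p = 0.0049) ahead by limma with Benjamini-Hochberg adjustment, and the other 5 were not called. The median of these 8 was 0.28 log2 units.

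Markers of other cell types in the tissue moved with the turn as well, and fewer cells of a type and less RNA per cell cannot be told apart on these arrays. Among all genes, 17.6% were called higher at the apex than at the base and 21.6% higher at the base. Between middle and base, 11.7% of all genes were called higher at the middle turn. Of 10 spiral ganglion neuron markers, 8 were called higher at the apex than at the base, Prph was called higher at the base and Uchl1 was not called, with a median of 1.44 log2 units. The summed neuron marker signal was 31000 to 40500 at the apex, 28700 to 50700 at the middle turn and 6560 to 27400 at the base, and all 10 genes were called higher at the middle turn than at the base. Of 10 hair cell markers, 9 were higher at the apex and Myo6 was not called (-0.11), with a median of 1.72. The sum of the 10 was 16200 to 20600 at the apex, 12500 to 14500 at the middle turn and 5010 to 7490 at the base. All 7 measured markers of Schwann cells and satellite glia were higher at the apex (median 0.72), with sums of 14100 to 15900, 14900 to 18000 and 7010 to 13400 along the same order of turns, as were 4 of 6 supporting cell markers (median 1.00). Of 8 stria vascularis markers, 7 were higher at the base (median -0.54), with sums of 56100 to 64500 at the apex, 69600 to 94600 at the middle turn and 82800 to 103000 at the base. Of 5 fibrocyte markers 4 were higher at the base and 1, Otor, at the apex (median -0.57). Of 7 skeletal muscle markers 3 were called higher at the base (median -0.26). Of 7 bone markers, Dmp1 was called higher at the base and the other 6 were not called (median 0.24), and apical sample 4, with the highest sum of the apical range of 1160 to 4690, deviated from its turn mean by 1.36 log2 units. The 4 blood markers were not called (median -0.21). Every neuron and hair cell marker was detected, with at least 1 probe well above background throughout some turn.

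At the middle and at the basal turn, the 6 genes called higher in both other turns than at the base were highest on the array with the highest neuron marker signal. The mean log2 signal of the neuron list deviated from its turn mean by 0.48 on middle sample 1, by -0.76 on basal sample 2 and by 1.00 on basal sample 3. On the same arrays Cacna2d3 deviated by 0.48, -0.76 and 0.95, and Cacng2 by 0.59, -0.85 and 1.25. Cacnb4 deviated by 0.39, -0.45 and 0.69, Cacng7 by 0.33, -0.37 and 0.47, Cacna1a by 0.31, -0.29 and 0.47, and Cacng5 by 0.14, -0.21 and 0.38. The list of Schwann cells and satellite glia deviated by 0.18, -0.37 and 0.47 on these 3 arrays. Hair cell markers deviated by -0.06, -0.33 and 0.17 there, and supporting cell markers by 0, -0.13 and 0.02. For bone the values were 0.10, 0.05 and 0.54, for blood -0.15, 0.14 and 0.61, and for skeletal muscle -0.06, 0.33 and -0.13. These arrays thus did not stand apart in neuron and glial markers alone. At the apex, the neuron list was highest on sample 1 (0.14), while Cacna2d3, Cacng5, Cacna1a and Cacnb4 were highest on sample 3 (0.13, 0.07, 0.21 and 0.13). Cacna1b was also highest on middle sample 1 and basal sample 3, at 0.17 and 0.07. Cacna2d1 and Cacna2d2 were at -0.16 and -0.12 on middle sample 1 and at -0.08 and -0.15 on basal sample 3, and Cacng4 at -0.55 and 0.16. The stria vascularis list was at -0.23 and -0.04 on the same arrays, and the fibrocyte list at -0.16 and -0.08. When basal replicate 3 and middle replicate 1 were both left out, also chosen after the data had been seen, 7 genes were called higher at the apex and 2 higher at the base. Basal sample 3 was the highest basal array of the 6 genes, so leaving it out could only raise their apex-to-base differences. Middle sample 1 does not enter the apical and basal means. This fit is therefore no check on neuron content. The part of neuron, glial and other cell content in the differences of the calcium channel genes was not tested.

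**Figure D5:**
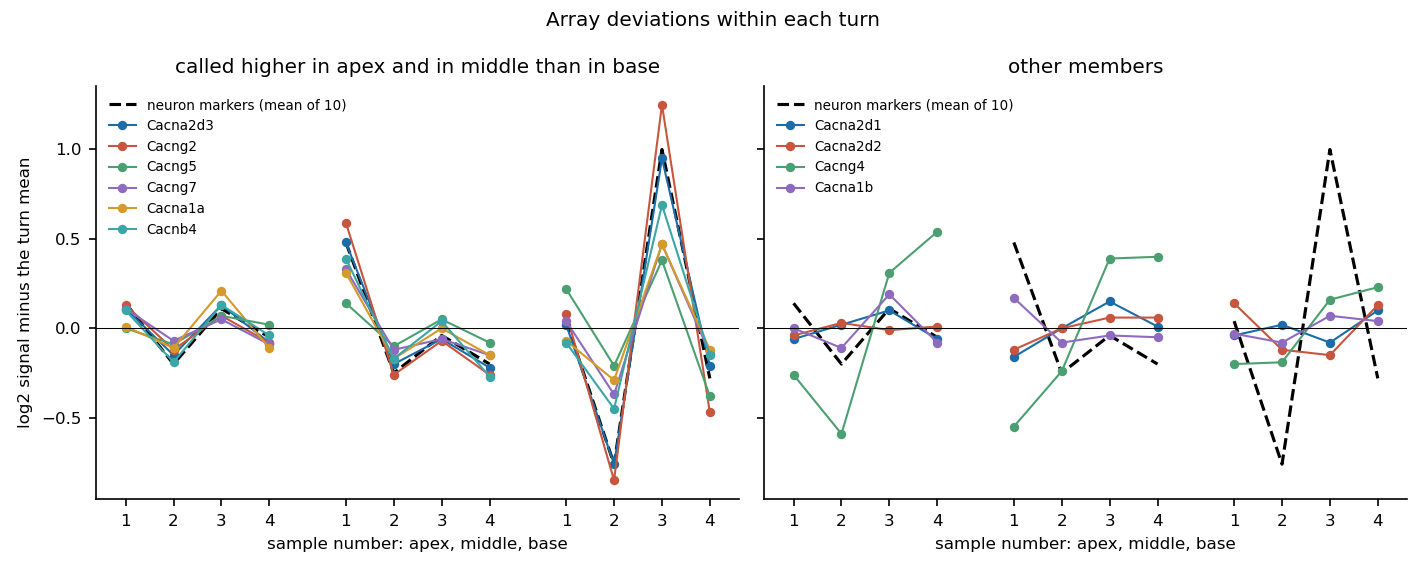
Log2 signal minus the mean of the turn (vertical axis) on each array (horizontal axis, samples 1 to 4 of apex, middle and base in turn), for the mean of 10 neuron markers (dashed) and the calcium channel genes. The 6 genes at left peak with the neuron markers on middle sample 1 and basal sample 3, where Cacna2d3 is at 0.48 and 0.95, while Cacna2d1, Cacna2d2 and Cacng4 at right are at -0.16, -0.12 and -0.55 on middle sample 1.

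For the 3 genes with a called difference of 2-fold or more, the genes with the most similar profile over the 12 arrays were found among 16507 genes by the root mean square difference of centered log2 signals. Nearest to Cacna2d3 were Mapk8ip2 (0.045), Grin1 (0.054) and Rundc3a (0.058), where the median gene was at 0.72. Nearest to Cacng2 were Car10 (0.099), Bex2 (0.099) and Rab33a (0.102), with a median of 0.86. Cacng4 had no neighbor as close: its nearest genes were Smpd3 (0.27), Olfr876 (0.272) and Lcat (0.276), with a median of 0.85.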

How the data were processed

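Total RNA from the 3 cochlear turns was labeled with Cy3 and hybridized to 12 single-color exon arrays. The deposited values are fluorescence intensities of spots, made by the authors with Agilent Feature Extraction 10.7.3.1 as background-subtracted processed signals with no normalization between arrays. A deposited value table held the same intensities. Control spots and 622 spots flagged as uneven or outlying on any array (119 probes lost, none of the 10 genes) were left out. Arrays were scaled to a common 75th percentile, following the study's methods. Then log2 signals of repeated spots and then of the probes of a gene were averaged, and 19505 genes were tested with limma 3.58.1 in R 4.3.3 over all 12 arrays. No pseudocount was used. The 10 genes and all lists were chosen with earlier results of these data known. Named genes beyond the 10 include the called members of the other-subunit list and the 3 most similar profiles. The 2 most changed of the binding and AMPA lists in each direction are also named. The markers Prph, Uchl1, Myo6, Otor and Dmp1, exceptions in their lists, were named after their values were seen. Alternatives were other scalings, normexp background correction (offset 50), a pseudocount of 16, other probe summaries and filters, other tests, a replicate block and each array left out. Scripts were tested on simulated data. Probe positions are those of the files (mm9), and exon numbers were not used here. The study describes the 4 results of a turn as independent mouse samples, so p-values measure the spread between those samples. The labels do not tie arrays to mice, so mice shared by the turns were not modeled in the main test.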

Additional observations from a re-analysis of the deposited data

Results flagged for a closer look

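One value stood apart from the other arrays of its turn. In Cacna1b, middle sample 1 had a signal of 35.3 against 29.7 to 30.5 on the other 3 middle arrays, and its gap to the nearest of them was 0.836 of the range of the 4 arrays on the log2 scale, above Dixon's 95% critical value for 4 arrays. It was 1 of 30 combinations of gene and turn examined, and chance marks about 1 in 20. The same array had the highest neuron marker signal of the middle turn, and the cause was not tested.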

How the results depend on the processing

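Between apex and base, 7 of 10 genes were called higher at the apex and 2 at the base, and leaving out 1 array gave 5 to 7 and 1 to 2. Between middle and base, 6 and 2 became 4 to 7 and 2. Member probes went from 104 to between 67 and 113 (apex) and from 12 to between 9 and 16 (base). Under the F test with a 2-fold rule, 2 and 1 were left between apex and base, 0 were higher at the apex than at the middle turn, and 2 and 1 were left between middle and base. With arrays of 2 turns only, 2 genes were higher at the apex than at the middle turn, and Cacnb4 (0.80, limma, adjusted p = 0.064) and Cacng7 (0.64, adjusted p = 0.054) were not called between middle and base. Linear averaging and normexp each left 1 gene higher at the base than at the middle turn, and quantile normalization gave 26 member probes higher at the base. Scaling to 480 spike-in spots, chosen after the data had been seen, moved the median of all genes by -0.48 between apex and base, and 5.13% of all calls between them were higher at the apex, instead of 45.0%. It left 2 genes higher at the apex than at the base and 3 higher at the base, 0 higher at the apex and 1 higher at the middle turn between those turns, and 2 higher at the middle turn than at the base. Cacna1b (-0.39, limma, adjusted p = 0.0068) and Cacna2d1 (-0.03) then changed sign. Scaling to the median gave 26.5% of calls between apex and base and 18.6% of calls between apex and middle higher at the apex, instead of 45.0% and 36.8%. Without spike-in scaling, the apex-to-base direction of each called gene was kept under every alternative, apart from Cacna1a at 0.00 with linear averaging. With the sample number as a replicate block, Cacna1b was called between middle and base (0.22, limma, adjusted p = 0.049), no other gene's call changed, and 112 and 13 member probes were called. Same-numbered arrays deviated together with correlations from -0.037 to 0.227 in 12 pairs, 6 of them over 0.1. Differently numbered arrays were not compared in this way, so these values cannot decide whether a number names 1 mouse. The numbers were not taken as pairs because the labels do not tie arrays to mice. Precision is limited by 4 arrays per turn and, in Cacna1b, by signal near background.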
